A study of Mus musculus with 22 samples.

Results

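H3K27me3 at the promoters of noncoding RNA genes was compared between Jarid2 conditional knockout (cKO) and control mouse retinas. H3K27me3 is a repressive methyl mark on lysine 27 of histone H3. Of 19034 peaks in the deposited table, 1379 were kept: those annotated to a promoter, within 3 kb of a start site, of an autosomal gene that is neither protein coding nor a pseudogene, whatever their width. They belonged to 1300 genes on 19 chromosomes. The set held 904 peaks of long noncoding RNA genes, 179 of TEC genes (transcribed units still awaiting experimental evidence), 104 of miRNA genes and 184 of other small RNA genes. The same rule let in 8 peaks of T cell receptor and immunoglobulin segments. The mark was mapped by CUT&RUN, in which an antibody guides a nuclease to cut out the DNA around marked nucleosomes, in C57BL/6 retinas at embryonic day 18.5, with both retinas of an animal pooled. All 5 cKO animals carried Jarid2 fl/fl with Rx-cre, an inducible Cre driven by the eye-field gene Rax. The 5 controls were Jarid2 fl/+ with Rx-cre (control 1), Jarid2 fl/+ without Cre (controls 2, 4 and 5) and Jarid2 fl/fl without Cre (control 3). The protocol describes tamoxifen at 75 µg per g given at E10.5. Batch 1 was a single litter with 2 cKO and 2 control animals, and cKO 1 and control 2 were its females. Batch 2 had only males, with 3 cKO and 3 control animals.

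Jarid2 is an accessory subunit of Polycomb repressive complex 2 (PRC2), the enzyme that writes H3K27me3, and it helps to recruit the complex to CpG-rich DNA. Many noncoding RNA genes lie beside developmental regulators and share their Polycomb domains. Some host miRNAs, short RNAs that pair with messenger RNAs through their seed, bases 2 to 8 of the mature strand. In the retina, miR-9, miR-124, miR-125b, let-7 and the cluster of miR-96, miR-182 and miR-183 are known for their roles in the timing of progenitors and in photoreceptors.

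A RefSeq miRNA hairpin overlapped 31 of the 1379 peaks, all of them tested. 46 hairpins did so in all. 4 of these 31 peaks were lower in cKO retinas (edgeR quasi-likelihood test over all peaks, adjusted p under 0.05). The share called lower was 10.6% over all tested noncoding promoter peaks and 7.38% over all tested peaks. None was higher by edgeR, DESeq2 or limma-voom, with 0 at an unadjusted p under 0.05 in each. The mature strands from 3 of those 4 are shown first, followed by strands of 3 well known neural miRNAs whose peaks were not called (RefSeq, GRCm38.p6, 5′ to 3′, seed in capitals). Mir8110 is encoded on the plus strand of chromosome 8, and Mir125b-1 and Mir7656 on that of chromosome 9. The Mir125b-1 strands, chr9:41581940-41581961 and chr9:41581980-41582001, lie in a peak annotated to their host gene Mir100hg. All 20 strands compared had different seeds.
mmu-miR-8110: aAGCGUGGauugggggggggg
mmu-miR-125b-5p: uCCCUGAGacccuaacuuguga
mmu-miR-125b-1-3p: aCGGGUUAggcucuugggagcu
mmu-miR-7656-5p: uGUGGGAUcagauagccuguua
mmu-miR-7656-3p: aCAGGCUGucugaucccacggu
mmu-miR-9-5p: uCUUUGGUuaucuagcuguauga
mmu-miR-96-5p: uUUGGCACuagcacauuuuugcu
mmu-miR-137-3p: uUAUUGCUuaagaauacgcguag

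The deposited counts gave 1688368 to 2864080 reads in peaks per animal. Duplicate libraries of an animal differed by no more than counting noise and were summed. Reads on the X chromosome came to 2.41% and 2.51% in the animals labelled female and ranged over 1.23% to 1.33% in those labelled male. As a tissue check, 4 of 10 eye-field and progenitor genes had any H3K27me3 peak, with a median of 0 CPM. CPM are reads scaled to the animal's total in tested peaks, adjusted by a scaling factor per animal (TMM). Of the genes of retinal neurons 7 of 9 had a peak (median 658 CPM), and of those of other tissues 9 of 15 (median 239 CPM). Genes in use usually carry little of this mark, so the check is indirect. The counts hold no readout of Jarid2 recombination. In a pooled retina, a loss of the mark in all cells and a complete loss in some of them cannot be told apart.

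H3K27me3 was lower in cKO retinas at 130 of the 1226 tested noncoding promoter peaks (10.6%) and higher at 19 (1.55%). Over all 16307 tested peaks, 7.38% were lower and 1.46% were higher, and 8.84% were called in either direction (edgeR, adjusted p under 0.05). Promoter peaks of protein-coding genes were called lower at 208 and higher at 119 of 6507 (3.20% and 1.83%), and autosomal peaks outside promoters at 827 and 80 of 7536 (10.97% and 1.06%). The share of lower noncoding promoter peaks thus lay nearer to that of peaks outside promoters than to that of coding promoters; this difference was not tested. The changes were small. The 130 lower peaks had a median 1.39-fold decrease with 4 of them past 2-fold, and the 19 higher peaks had a median 1.30-fold increase with 0 past 2-fold. The median log2 fold change was 0.01 over the 1226 peaks and 0.02 over all peaks tested. TMM scaling centres most peaks near 0, so these medians cannot show a change common to most peaks. Scaled to the total count in peaks, they were 0.06 and 0.07. Either scaling is relative, and so are the calls in both directions. The direction was the same in both batches at 148 of the 149 called peaks, a match that the pooled test favours, and at 64.9% of those not called. The 153 peaks with too few reads to be tested had a median of 2.94 CPM.

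**Figure D1:**
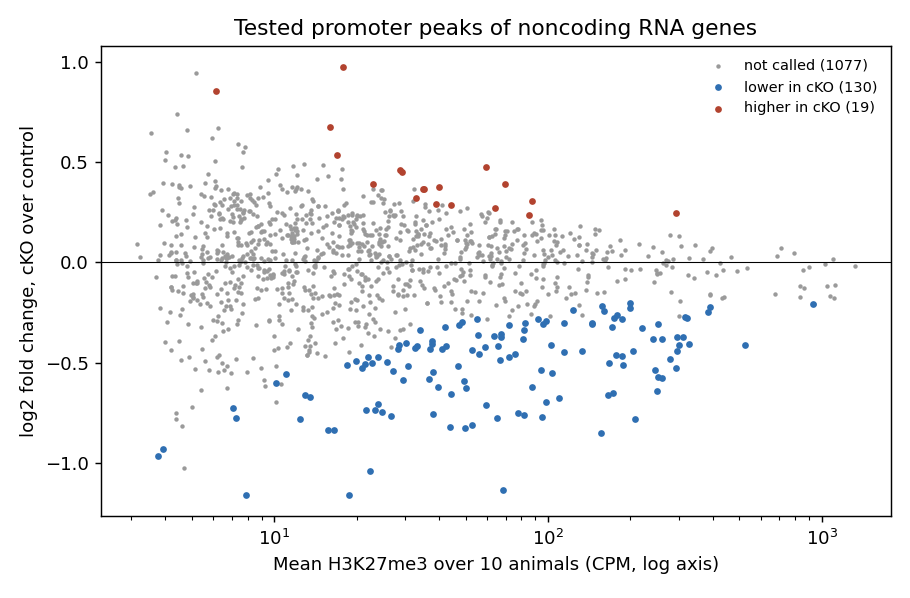
Each point is 1 of the 1226 tested promoter peaks of noncoding RNA genes, by its mean H3K27me3 over 10 animals (CPM, log axis) and its log2 fold change (cKO over control); blue peaks were called lower in cKO, red peaks higher, and grey peaks were not called. The 130 blue peaks spread over nearly the whole range of levels and the 19 red peaks lie below 300 CPM.

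Lower calls were found in every large class. They took 27 of 156 tested TEC peaks (17.3%), 62 of 501 lincRNA peaks (12.4%), 14 of 180 antisense RNA peaks (7.78%), 6 of 91 miRNA peaks (6.59%) and 9 of 161 peaks of other small RNAs (5.59%). Higher calls numbered 2 among TEC, 11 among lincRNA, 1 among antisense RNA, 1 among miRNA and 2 among other small RNA peaks. By level, 76 of 331 peaks at 50 CPM or more were lower (23.0%), against 49 of 547 at 10 to 50 CPM (8.96%) and 5 of 348 below 10 CPM (1.44%). Coding promoter peaks at 50 CPM or more were called lower at 125 of 2712 (4.61%) and autosomal peaks outside promoters at 340 of 941 (36.1%). Fewer reads give a test less power, so shares at different levels are not set against each other.

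The count of lower peaks depended on how the batches were handled. It was 36 without the batch term, with 3 higher; batch 2 alone gave 94 lower and 13 higher, against 5.92% and 1.04% of its 16276 tested peaks, while batch 1 alone, with 2 animals a side, gave 0 by edgeR although 151 lower and 43 higher peaks had an unadjusted p under 0.05. Without control 1, the control that carries Cre, 137 were lower and 26 higher. Leaving out a control without Cre moved the lower count further: it was 154 without control 5 and 92 without control 4, each with 14 higher. Scaling to the total count in peaks gave 113 lower and 38 higher, so that 74.8% of the calls were lower, against 87.2% with TMM scaling. The number of higher peaks was the less steady of the pair: it was 12 without cKO 1, 10 without cKO 4, 9 without cKO 5, 11 without control 3, and 3 with DESeq2.

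The strongest lower peaks lay at genes of several classes. A noncoding gene is said to lie at a coding gene where its peak overlaps the RefSeq body of that gene. The largest change among them was at Mir7218, an miRNA gene 56.7 kb from the gene body of Grm4, a metabotropic glutamate receptor. Its peak (chr17:27358060-27365710, mm10) held 21.9 and 25.1 CPM in batch 1 and 56.7, 67.3 and 43.3 CPM in batch 2 in cKO retinas, against 44.8 and 62.3 CPM in batch 1 and 101.3, 141 and 124 CPM in batch 2 in controls. The cKO animals were below the controls within each batch, although the groups overlapped when the batches were pooled. The fitted difference was -1.14 ± 0.12 on the log2 scale (SE; adjusted p = 6.8e-06 by edgeR). Gm25470, annotated as an miRNA gene, lies at Foxp2, a forkhead transcription factor gene whose body its peak overlaps. The peak (chr6:15394900-15413640) held 120.5 and 124 CPM in batch 1 and 170.4, 175 and 176 CPM in batch 2 in cKO retinas, against 191 and 282 CPM in batch 1 and 282, 287 and 269 CPM in batch 2 in controls. Here every cKO animal was below every control, with control 1 the lowest of the controls. The change was -0.78 ± 0.08 on the log2 scale (SE; adjusted p = 7.3e-06 by edgeR). The lincRNA gene Gm45004, 23.8 kb from the polysialyltransferase gene St8sia2, held 65.6 and 66.6 CPM in batch 1 and 84.00, 74.4 and 83.7 CPM in batch 2 in cKO retinas, against 91.1 and 118 CPM in batch 1 and 125, 145 and 129 CPM in batch 2 in controls in its peak (chr7:74037550-74049070). Again the groups did not overlap, and the difference was -0.69 ± 0.08 on the log2 scale (SE; adjusted p = 1.1e-05 by edgeR). The TEC gene Gm21816, on chromosome 16 and 280.2 kb from the nearest coding gene Usp25, a deubiquitinase, did the same, with 153 and 168 CPM in batch 1 and 244, 229 and 223 CPM in batch 2 in cKO retinas, against 248 and 266 CPM in batch 1 and 333, 354 and 308 CPM in batch 2 in controls. It differed by -0.57 ± 0.07 on the log2 scale (SE; adjusted p = 1.1e-05 by edgeR).

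**Figure D2:**
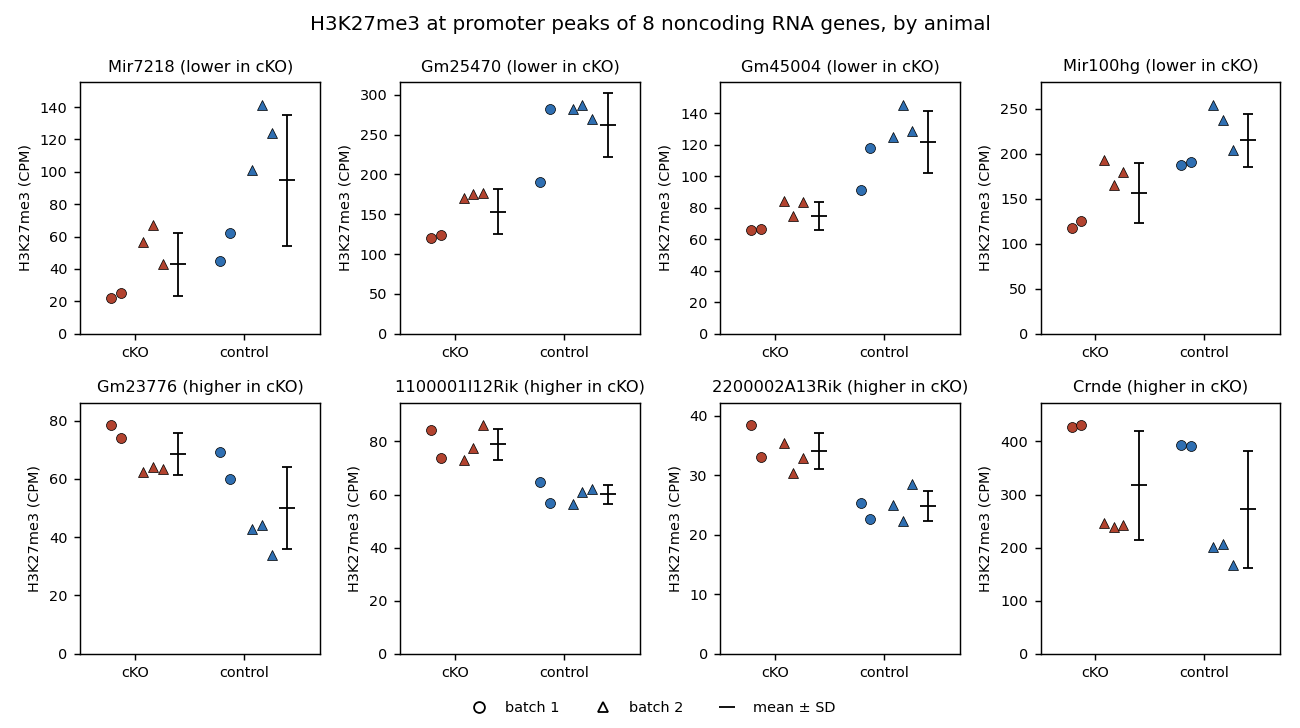
H3K27me3 (CPM, axes from 0) at the promoter peaks of 8 noncoding RNA genes in each cKO animal (red, left) and control animal (blue, right), with circles for batch 1, triangles for batch 2, and the mean ± SD over 5 animals beside each group. In the top row all cKO points of a batch lie below its controls and in the bottom row all lie above them.

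The other 6 of the 10 strongest lower peaks had log2 fold changes of -0.85 to -0.64. Gm43426, a TEC gene at Slit2, which encodes an axon guidance ligand, held 77.3 and 79.7 CPM in batch 1 and 133, 124 and 143 CPM in batch 2 in cKO retinas, against 127 and 208 CPM in batch 1 and 210.2, 235 and 221 CPM in batch 2 in controls in its peak (chr5:48055040-48063200). The fitted change was -0.85 ± 0.10 on the log2 scale (SE; adjusted p = 1.4e-05 by edgeR). Gm38095, a TEC gene at the potassium channel gene Kcnq1, held 70.3 and 96.7 CPM in batch 1 and 172, 159 and 146 CPM in batch 2 in cKO retinas, against 132 and 174 CPM in batch 1 and 233, 244 and 227 CPM in batch 2 in controls. It differed by -0.66 ± 0.09 on the log2 scale (SE; adjusted p = 4.2e-05 by edgeR). Both were lower in every cKO animal than in the controls of the same batch. The same held for the antisense genes Gm26811 (log2 fold change -0.68, edgeR adjusted p = 1.3e-05) and Gm15555 (log2 fold change -0.75, edgeR adjusted p = 3.3e-05), for Gm16759 at Iqch (log2 fold change -0.77, edgeR adjusted p = 1.7e-05) and for the lincRNA gene Gm12410 (log2 fold change -0.64, edgeR adjusted p = 3.2e-05). Each of the 10 passed in every fit that left out an animal. Without the batch term, Mir7218, Gm26811, Gm16759, Gm12410 and Gm38095 did not pass (edgeR adjusted p = 0.067, 0.062, 0.245, 0.117 and 0.114). The 4 peaks past 2-fold were Mir7218, the ribosomal RNA gene Gm23702, the lincRNA gene Gm27243 with a log2 fold change of -1.16, and Gm42439, an antisense gene nearest to Auts2, with -1.04. Gm27243 and Gm42439 were picked for the size of their change.

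The 6 lower miRNA peaks included Mir7218, Gm25470 and 4 others. Mir8110 lies at Sall1, a zinc finger gene of eye and kidney development, and its peak (chr8:89022730-89028120) held 28.8 and 16.03 CPM in batch 1 and 18.9, 17.4 and 18.8 CPM in batch 2 in cKO retinas, against 34.3 and 27.1 CPM in batch 1 and 30.04, 38.05 and 38.04 CPM in batch 2 in controls. In batch 2 the groups did not overlap, whereas in batch 1 cKO 1 lay between the 2 controls. The difference was -0.77 ± 0.14 on the log2 scale (SE; adjusted p = 9.5e-04 by edgeR). Mir7656, at the sodium-proton exchanger gene Slc9a9, held 54.9 and 44.1 CPM in batch 1 and 52.6, 51.2 and 48.4 CPM in batch 2 in cKO retinas, against 59.7 and 76.1 CPM in batch 1 and 61.5, 75.7 and 65.7 CPM in batch 2 in controls in its peak (chr9:94748370-94752850). No cKO animal reached the lowest control, and the difference was -0.42 ± 0.09 on the log2 scale (SE; adjusted p = 0.0040 by edgeR). The remaining 2, Gm25942 (log2 fold change -0.43, edgeR adjusted p = 0.011) and Gm25996 at the dopamine receptor gene Drd3 (log2 fold change -0.53, edgeR adjusted p = 0.0094), are names from the deposited annotation. The 1 higher miRNA peak, Mir7240 at the kinase gene Mast3 (chr8:70797220-70800590), held 35.7 and 45.1 CPM in batch 1 and 36.98, 39.6 and 38.6 CPM in batch 2 in cKO retinas, against 35.8 and 40.3 CPM in batch 1 and 29.7, 24.7 and 24.5 CPM in batch 2 in controls. Its groups overlapped in batch 1, where the mean log2 difference was 0.08, against 0.54 in batch 2. The difference over both was 0.36 ± 0.11 on the log2 scale (SE; adjusted p = 0.040 by edgeR), and it passed in only 3 of 10 fits that left out an animal. The call was lost without cKO 2, 3, 4 or 5 or control 3, 4 or 5, with an edgeR adjusted p of 0.058 to 0.124. By DESeq2, Gm25996 and Mir7240 did not pass (adjusted p = 0.067 and 0.201), and the other called miRNA peaks did.

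Of the other small RNAs, 9 peaks were lower and 2 higher. The lower ones belonged to 3 ribosomal RNA, 3 small nuclear RNA, 1 small nucleolar RNA and 2 miscellaneous RNA genes. Genes of these kinds occur in many near-identical copies, and the placing of reads with several matches was not given in the sources used here. The peaks reach far beyond the short genes. The ribosomal RNA gene Gm27266 lies at Auts2, a Polycomb-associated gene of neural development, and its 24071 bp peak held 222 and 244 CPM in batch 1 and 314, 289 and 284 CPM in batch 2 in cKO retinas, against 312 and 357 CPM in batch 1 and 371, 359 and 349 CPM in batch 2 in controls. The fitted difference was -0.37 ± 0.07 on the log2 scale (SE; adjusted p = 7.8e-04 by edgeR). The snoRNA gene Gm23949 (log2 fold change -0.55, edgeR adjusted p = 1.7e-04), the snRNA genes Gm23445 (log2 fold change -0.71, edgeR adjusted p = 0.0024), Gm23972 (log2 fold change -0.84, edgeR adjusted p = 6.9e-04) and Gm24856 (log2 fold change -0.36, edgeR adjusted p = 0.037), and the ribosomal RNA gene n-R5s28 (log2 fold change -0.60, edgeR adjusted p = 0.027) were also lower. Gm23702, a ribosomal RNA gene at Kirrel3, had the largest change of the small RNAs, with 3.198 and 2.505 CPM in batch 1 and 6.03, 5.79 and 6.58 CPM in batch 2 in cKO retinas, against 2.99 and 8.18 CPM in batch 1 and 11.9, 14.1 and 17.7 CPM in batch 2 in controls. It differed by -1.16 ± 0.22 on the log2 scale (SE; adjusted p = 0.0012 by edgeR), and in batch 1 the groups overlapped. The miscellaneous RNA genes Gm27901 near Kcnq1 (log2 fold change -0.31, edgeR adjusted p = 0.0025) and Gm27919 (log2 fold change -0.39, edgeR adjusted p = 0.014) completed the lower set. Higher were Gm23776 and the snoRNA gene Gm25880 (log2 fold change 0.39, edgeR adjusted p = 0.043); Gm25880 passed in 3 of 10 fits that left out an animal, as did n-R5s28, and Gm24856 passed in 5. The edgeR adjusted p of Gm25880 was 0.053 to 0.176 without cKO 1, 2, 3 or 5 or control 2, 3 or 5. For n-R5s28 it was 0.051 to 0.138 without cKO 1, 3, 4 or 5 or control 2, 3 or 4. For Gm24856 it was 0.072 to 0.107 without cKO 1, 2 or 4 or control 2 or 4. By DESeq2, Gm27919, n-R5s28 and Gm25880 did not pass (adjusted p = 0.069, 0.225 and 0.288). Gm23702 was given no adjusted p there, so it was not called either, and the rest passed.

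The list of 72 symbols of miRNAs and miRNA hosts with known roles in retina or elsewhere matched 19 peaks of 17 genes. Of 18 tested, 2 were lower and 13 had a negative log2 fold change, with a median of -0.10. Over all 1226 tested peaks 10.6% were lower and 581 had a negative log2 fold change, with a median of 0.01. None was higher by edgeR, DESeq2 or limma-voom, with 1, 0 and 1 of them higher at an unadjusted p under 0.05. Both lower peaks belonged to Mir100hg, the host of miR-100, let-7a-2 and miR-125b-1. The one that holds the Mir125b-1 hairpin (chr9:41572590-41585800) had 118 and 126 CPM in batch 1 and 193, 165 and 180.1 CPM in batch 2 in cKO retinas, against 188 and 191 CPM in batch 1 and 254, 237 and 205 CPM in batch 2 in controls. Within each batch the cKO animals were below the controls, and the difference was -0.47 ± 0.08 on the log2 scale (SE; adjusted p = 2.4e-04 by edgeR). The peak nearer to the start of the gene (chr9:41398150-41411850) showed 58.1 and 61.1 CPM in batch 1 and 81.6, 81.97 and 66.8 CPM in batch 2 in cKO retinas, against 69.2 and 96.9 CPM in batch 1 and 89.02, 106 and 98.7 CPM in batch 2 in controls. It differed by -0.38 ± 0.09 on the log2 scale (SE; adjusted p = 0.0082 by edgeR). Another peak, over the first RefSeq start site, was smaller and not called (log2 fold change -0.40, edgeR adjusted p = 0.133). Mir124a-3, a copy of the neuronal miR-124, had 115 and 137 CPM in batch 1 and 129, 119.8 and 105 CPM in batch 2 in cKO retinas, against 127 and 168 CPM in batch 1 and 156, 147 and 128 CPM in batch 2 in controls, with overlapping groups (log2 fold change -0.26, edgeR adjusted p = 0.060). It did not pass, although it did without control 1 or control 5 (edgeR adjusted p = 0.010 and 0.022).

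The other miRNA peaks of the list were not called. Mir9-3, a copy of the neural progenitor miRNA miR-9, held 533 and 564 CPM in batch 1 and 328, 318 and 308 CPM in batch 2 in cKO retinas, against 472 and 493 CPM in batch 1 and 342, 308 and 310.2 CPM in batch 2 in controls. Both groups were higher in batch 1 than in batch 2, and the difference was 0.07 ± 0.06 on the log2 scale (SE; adjusted p = 0.589 by edgeR). For Mir96 of the sensory cluster of miR-96, miR-182 and miR-183 the peak (chr6:30167630-30184850) held 484 and 535 CPM in batch 1 and 483, 466 and 450.1 CPM in batch 2 in cKO retinas, against 578 and 556 CPM in batch 1 and 534, 447 and 383 CPM in batch 2 in controls. The change was -0.04 ± 0.08 on the log2 scale (SE; adjusted p = 0.823 by edgeR), with overlap in batch 2. A 0.9 kb peak downstream, annotated to Mir182 of the same cluster, was too low to be tested, at 1.88 ± 0.20 CPM in cKO and 2.94 ± 0.47 CPM in control retinas (SD, n = 5 each). The other peaks were those of the neuronal Mir137 (log2 fold change -0.08, edgeR adjusted p = 0.558), Mir129-2 (log2 fold change -0.0027, edgeR adjusted p = 0.991), Mir219a-2 (log2 fold change -0.04, edgeR adjusted p = 0.799), Mir7b (log2 fold change 0.05, edgeR adjusted p = 0.822), Mir203 (log2 fold change 0.04, edgeR adjusted p = 0.838), Mir218-2 at Slit3 (log2 fold change -0.17, edgeR adjusted p = 0.656) and Mir125b-2 (log2 fold change -0.44, edgeR adjusted p = 0.422). The hairpin of another copy of miR-9, Mir9-1, lay in the peak annotated to Gm25641, which was looked up for this reason; it had 1025.7 CPM and a log2 fold change of -0.01.

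Of the 19 higher peaks, 14 (73.7%) overlapped or lay within 10 kb of a coding gene body, as did 660 of all 1226 tested (53.8%). Gm23776, a miscellaneous RNA gene on chromosome 10, led them with 78.3 and 74.1 CPM in batch 1 and 62.3, 64.1 and 63.5 CPM in batch 2 in cKO retinas, against 69.2 and 59.8 CPM in batch 1 and 42.7, 44.3 and 33.96 CPM in batch 2 in controls. The cKO animals were above the controls within each batch, and the difference was 0.47 ± 0.10 on the log2 scale (SE; adjusted p = 0.0020 by edgeR). The lincRNA gene 1100001I12Rik, 1.0 kb from Atp6v1c1, a subunit gene of the vacuolar proton pump, held 84.2 and 73.6 CPM in batch 1 and 73.1, 77.5 and 86.1 CPM in batch 2 in cKO retinas, against 64.7 and 56.6 CPM in batch 1 and 56.5, 60.8 and 62.04 CPM in batch 2 in controls. Every cKO animal was above every control, and the difference was 0.39 ± 0.08 on the log2 scale (SE; adjusted p = 0.0022 by edgeR). The TEC gene 2200002A13Rik, 1.7 kb from the kinase gene Bckdk, held 38.4 and 33.1 CPM in batch 1 and 35.4, 30.3 and 32.9 CPM in batch 2 in cKO retinas, against 25.4 and 22.7 CPM in batch 1 and 24.97, 22.4 and 28.5 CPM in batch 2 in controls. The groups again did not overlap (log2 fold change 0.45, edgeR adjusted p = 0.0071). 5830411K02Rik lay 21.3 kb from Gfi1, a zinc finger repressor gene (log2 fold change 0.37, edgeR adjusted p = 0.014). Also among the first 10 were Gm15234 (log2 fold change 0.67, edgeR adjusted p = 0.0095), Gm45184 (log2 fold change 0.30, edgeR adjusted p = 0.011), Gm48914 (log2 fold change 0.85, edgeR adjusted p = 0.013) and Gm48772 (log2 fold change 0.53, edgeR adjusted p = 0.017). Gm48772 did not pass without cKO 5, control 3 or control 4 (edgeR adjusted p = 0.055, 0.054 and 0.058), and 5830411K02Rik did not without cKO 2 (edgeR adjusted p = 0.060). By DESeq2, 2200002A13Rik, 5830411K02Rik, Gm15234, Gm45184 and Gm48772 did not pass (adjusted p = 0.081, 0.116, 0.051, 0.056 and 0.130). DESeq2 gave Gm48914 no adjusted p, so it was not called there either. The largest increase of the 19 was at Gm42031 near Zfp791, singled out for its size, with a log2 fold change of 0.97.

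Of 7 tested peaks of genes named after or beside an eye or neural transcription factor, 1 was called. Over all tested noncoding promoter peaks 12.2% were called, and over all tested peaks 8.84%. The called one was that of Crnde, transcribed away from the homeobox gene Irx5. Its peak (chr8:92350900-92370920) held 428 and 430.4 CPM in batch 1 and 246, 239 and 243 CPM in batch 2 in cKO retinas, against 393 and 391 CPM in batch 1 and 202, 206 and 168 CPM in batch 2 in controls. Batch 1 was far above batch 2 in both groups, and within each batch the cKO animals were above the controls. The fitted change was 0.25 ± 0.07 on the log2 scale (SE; adjusted p = 0.021 by edgeR). It did not pass without cKO 4 or cKO 5, nor without the batch term (edgeR adjusted p = 0.690). Its RefSeq promoter lies in the peak on the minus strand (chr8:92356071-92356370, GRCm38.p6) and is shown beside that of Gm15555 on the plus strand (chr16:76000534-76000833), a lower peak, since both start sites lie inside their peaks. Capitals mark CG, the dinucleotide that can be methylated, which reads the same on both strands. The Crnde promoter holds 22 and the Gm15555 promoter 6. The RefSeq promoters of the lower genes Gm16759, with 32, and Mir100hg, with 15 and 4, lie outside their called peaks. The pair shown thus stands for no direction of change. Of all 32851 RefSeq promoters of 300 bases, 94.6% hold at least 1 CG, and the median is 7. Only 435 of the 1379 peaks match a RefSeq promoter by symbol, so the dinucleotide was not counted over the set.
Crnde promoter: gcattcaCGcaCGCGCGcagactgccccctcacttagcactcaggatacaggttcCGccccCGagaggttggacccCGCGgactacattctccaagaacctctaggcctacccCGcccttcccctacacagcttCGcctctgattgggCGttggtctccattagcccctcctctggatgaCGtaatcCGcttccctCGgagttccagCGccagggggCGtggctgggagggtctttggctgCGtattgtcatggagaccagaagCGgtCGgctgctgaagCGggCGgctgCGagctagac
Gm15555 promoter: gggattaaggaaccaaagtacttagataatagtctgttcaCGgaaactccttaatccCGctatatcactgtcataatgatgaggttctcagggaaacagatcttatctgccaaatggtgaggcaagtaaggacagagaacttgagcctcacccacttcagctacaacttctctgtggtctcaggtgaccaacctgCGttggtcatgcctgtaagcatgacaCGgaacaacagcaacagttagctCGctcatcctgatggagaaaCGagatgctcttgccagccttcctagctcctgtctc

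The 6 peaks with the most reads were not called by edgeR. They were 2410017I17Rik in the major histocompatibility region, Sox1ot over the neural transcription factor gene Sox1, Gm36991, Gm26644 near Pax2, Sfta3-ps near Nkx2-1 and Gm33175. These 6 peaks were 49.8 to 68.8 kb wide, with 15.9 to 22.4 CPM per kb, against a median of 5.46 CPM per kb over all 1379. Sox1ot held 1109 and 1158 CPM in batch 1 and 1121, 1042 and 930.2 CPM in batch 2 in cKO retinas, against 1346 and 1255 CPM in batch 1 and 1198, 1088 and 923 CPM in batch 2 in controls. In batch 1 both cKO animals were below both controls, and in batch 2 the groups overlapped (log2 fold change -0.11, edgeR adjusted p = 0.440). The others ran from a log2 fold change of -0.18 at Gm36991 (edgeR adjusted p = 0.081) to 0.01 at Gm26644. DESeq2 and limma-voom each called 1 of the 6, Gm36991, lower (adjusted p = 0.019 by DESeq2). Control 5 bore on this: without it, Sox1ot, Gm36991, Sfta3-ps and Gm33175 were called lower, with log2 fold changes of -0.19, -0.23, -0.22 and -0.17 (edgeR adjusted p = 0.033, 0.0019, 0.0019 and 0.017). The Sox2ot peak, 22.1 kb from the nearest coding gene body, that of Dnajc19, and not over Sox2, had 94.4 ± 7.88 CPM in cKO and 105 ± 4.91 CPM in control retinas (SD, n = 5 each) and was not called (edgeR adjusted p = 0.204). Nkx2-2os was not called (log2 fold change 0.14, edgeR adjusted p = 0.594).

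No noncoding gene of the Hox clusters, of 19 symbols, had a promoter peak in the set. The deposited annotation gives each peak a single gene. A noncoding start site inside a peak annotated to another gene is therefore missed, and absence from the set does not show absence of the mark. Of imprinted genes, Meg3 and Rian had 3 peaks, 0 of them called by edgeR, DESeq2 or limma-voom and 1 lower at an unadjusted p under 0.05 in each. That one was a Rian peak (chr12:109602270-109609280) with 84.7 and 81.2 CPM in batch 1 and 87.2, 84.6 and 78.1 CPM in batch 2 in cKO retinas, against 101.05 and 94.4 CPM in batch 1 and 104, 89.4 and 91.5 CPM in batch 2 in controls. All cKO animals were below all controls, yet the difference, -0.21 ± 0.07 on the log2 scale (SE; adjusted p = 0.076 by edgeR), did not pass. It passed without control 5 (edgeR adjusted p = 0.040). Meg3 differed by -0.01 ± 0.12 on the log2 scale (SE; adjusted p = 0.988 by edgeR), and the second Rian peak by 0.08. The host genes Snhg6 (log2 fold change 0.47, edgeR adjusted p = 0.119) and Snhg17 (log2 fold change 0.28, edgeR adjusted p = 0.323) were not called. Among 29 peaks of genes whose symbol ends in os, as or ot, 1 was lower and 0 were higher by edgeR, with 4 and 2 at an unadjusted p under 0.05. DESeq2 and limma-voom each called 2 lower and 0 higher. Of all tested noncoding promoter peaks, 10.6% were lower and 1.55% higher by edgeR, and of all tested peaks 7.38% and 1.46%.

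The share of lower peaks was greatest far from coding genes. Of 279 tested peaks over 50 kb from any RefSeq coding gene body, 65 were lower and 1 higher (23.3% and 0.358%). Of 287 at 10 to 50 kb, 15 were lower and 4 higher (5.23% and 1.39%). Of 343 within 10 kb, 13 were lower and 10 higher (3.79% and 2.92%). Of 317 that overlapped a coding gene body, 37 were lower and 4 higher (11.7% and 1.26%). Other autosomal peaks had the same order: 20.5% were lower over 50 kb away, 4.90% at 10 to 50 kb, 1.15% within 10 kb and 6.74% when overlapping. These are counts of peaks that share animals and often a locus, and no test was made of the difference between distances. From the farthest peaks to the overlapping ones, median levels of tested noncoding promoter peaks were 26.7, 16.3, 19.2 and 20.4 CPM. Those of other autosomal peaks were 14.4, 12.1, 14.1 and 29.8 CPM, so the power to call also differed between distances. In all, 356 of the 1379 peaks (25.8%) overlapped a coding gene body, and the rest lay a median of 18373 bp away. By annotation, 105 of 852 tested peaks within 1 kb of the noncoding start site were lower, 14 of 205 at 1 to 2 kb and 11 of 169 at 2 to 3 kb. Their median levels were 25.8, 12.4 and 11.8 CPM, so the power to call differed and these shares are not set against each other.

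**Figure D3:**
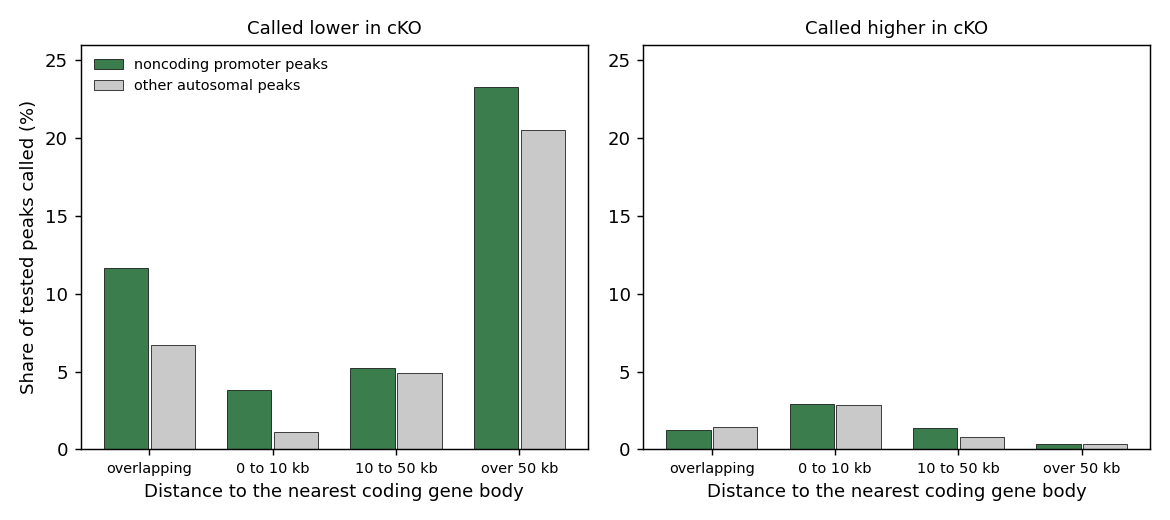
Share of tested peaks called lower (left) or higher (right) in cKO retinas, in percent, for noncoding promoter peaks (green) and other autosomal peaks (grey), by distance to the nearest RefSeq protein-coding gene body. In both kinds of peak the lower share is greatest over 50 kb away (23.3% and 20.5%) and the higher share within 10 kb (2.92% and 2.87%).

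The 130 lower peaks fell into 108 loci when peaks less than 250 kb apart were joined, and 15 loci held more than 1, with 37 peaks in all. Near Otx2, the homeobox gene of photoreceptor and bipolar cell fate, 4930572G02Rik, Gm49153, Gm49156 and Gm534 were lower with log2 fold changes of -0.46 to -0.24. A span runs from the first to the last lower noncoding peak of a locus, so its count of lower peaks includes these. Of the 12 tested peaks of any kind in this span, 8 were lower and 0 higher. Near Thap1, a zinc finger gene, 4 peaks of Gm31727, Gm45580 and Gm31983 had log2 fold changes of -0.51 to -0.32. They were the only lower peaks among the 7 tested in their span. In the spans near Barhl2 and near Ofcc1, 2 of 7 and 3 of 5 tested peaks were lower, again only the noncoding ones. Around Kcnq1, Gm38095, Gm38065 and Gm27901 had -0.78 to -0.31, with 6 of 8 tested peaks of the span lower. Pairs stood near Sox2, a progenitor factor gene (Gm42692 and Gm42693), Msx2, a homeobox gene (9530014B07Rik and 4930555G21Rik), and Auts2 (Gm27266 and Gm43483). These loci were listed after their values were known.

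A promoter peak of a coding gene lay within 100 kb of 46 of the 130 lower peaks, and at 13 of these 46 (28.3%) the nearest such coding peak was lower as well, with 0 higher. Neighbours repeat: the 46 had 39 distinct coding genes, and the 13 had 9. For the 636 peaks that were not called and had such a neighbour, 14 coding peaks were lower and 14 higher (2.20% each). The coding neighbours of the 10 higher peaks that had one were not called, with log2 fold changes of -0.01 to 0.55 and edgeR adjusted p of 0.115 or more. Across the 692 tested pairs Pearson's r of the log2 fold changes was 0.349 and Spearman's rho 0.310, over pairs from the same animals and libraries that can share 1 coding peak. Gm43426 had a log2 fold change of -0.85 and the coding peak of Slit2 one of -1.14. Lower in both were also Gm38197 and Mecom (-0.44 and -0.66), Gm44781 and Lmo1 (-0.58 and -0.53), and Gm49156 and Otx2 (-0.46 and -0.32), the noncoding peak given first. Mir8110 had a log2 fold change of -0.77, and the coding peak of Sall1, at -0.16, was not called.

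The 2 batches were separate animals, so peaks called in batch 2 alone could be looked at in batch 1. Of the 94 lower peaks of batch 2, 92 had a negative mean difference in batch 1, and at 75 both cKO animals were below both controls. Of the 13 higher peaks, 11 had a positive mean difference, and at 8 both cKO animals were above both controls. Of 1115 peaks not called in batch 2, 303 had both cKO animals below and 307 above. Set against control 2, which had no Cre, the median log2 difference over the 94 lower peaks was -0.77 in cKO 1, -0.70 in cKO 2 and -0.40 in control 1. Control 1, which carries 1 floxed allele and Cre, was below control 2 at 87 of the 94 (92.6%) and at 548 of the 1115 not called (49.1%). Its median lay between those of the cKO animals and control 2. Over 853 other autosomal peaks lower in batch 2 the medians were -0.86, -0.81 and -0.44, and control 1 was below control 2 at 95.2%. Control 1 was a male and control 2 a female, each is 1 animal, and control 2 had the lowest depth of all, so genotype, sex, depth and the individual cannot be told apart.

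**Figure D4:**
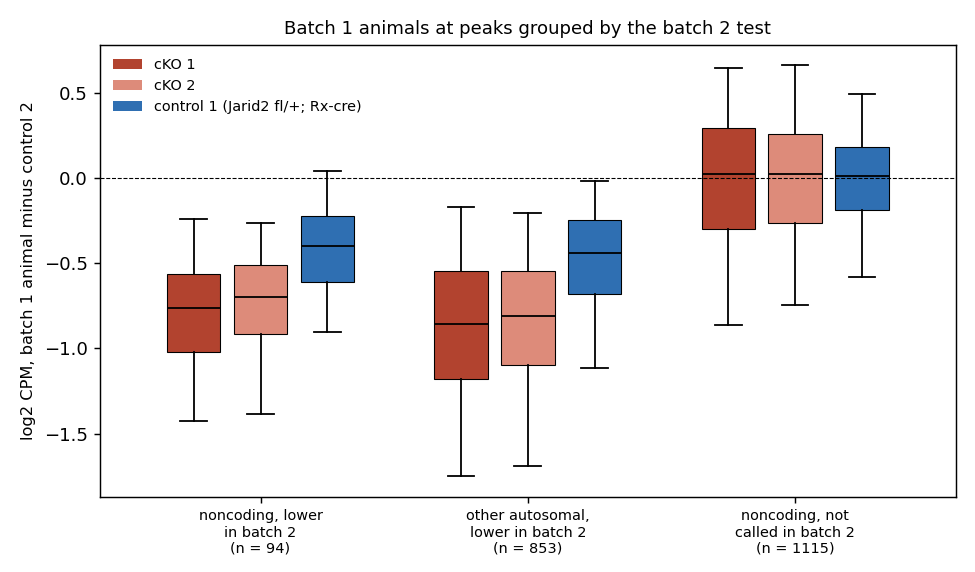
log2 CPM of cKO 1, cKO 2 and control 1 (Jarid2 fl/+; Rx-cre) minus control 2 (Jarid2 fl/+), the 4 animals of batch 1, at peaks grouped by the test in batch 2 alone; boxes give the median and quartiles and whiskers the 5th and 95th percentiles over peaks. At the 94 noncoding promoter peaks lower in batch 2 the medians are -0.77, -0.70 and -0.40, and at the 1115 not called they are 0.02, 0.03 and 0.01.

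Reads in the noncoding promoter peaks made up 7.44% ± 0.0732 of reads in peaks in cKO and 7.67% ± 0.111 in control retinas (SD, n = 5 each). In batch 1 the cKO animals had 7.32% and 7.44%, against 7.49% and 7.67% in the controls. In batch 2 the cKO animals had 7.44%, 7.47% and 7.52%, against 7.68%, 7.75% and 7.78% in the controls. The groups did not overlap within either batch. Over coding promoters the share was 67.3% ± 1.12 in cKO and 65.8% ± 1.94 in control retinas. Over autosomal peaks outside promoters it was also lower in cKO, at 20.9% ± 1.20 against 22.2% ± 1.77 in control retinas. Shares add up to a whole, so a lower share of one kind of peak raises the others.

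The effect of genotype differed between the batches at 2 of 16307 peaks (0.0123%), and 1 of them was a noncoding promoter. This was Gm15556, an antisense gene at Foxp4, a forkhead transcription factor gene. Its peak (chr17:47916180-47923560) held 13.3 and 20.04 CPM in batch 1 and 111, 82.9 and 86.1 CPM in batch 2 in cKO retinas, against 71.2 and 66.1 CPM in batch 1 and 144, 111 and 109.6 CPM in batch 2 in controls. The cKO animals of batch 1 were far below every other animal, and in batch 2 the groups overlapped. The mean log2 difference was -2.01 in batch 1 and -0.38 in batch 2, with an interaction, batch 2 minus batch 1, of 1.65 ± 0.26 (SE, log2 scale, edgeR adjusted p = 0.042). The call over both batches was -0.76 ± 0.18 on the log2 scale (SE; adjusted p = 0.0082 by edgeR). The interaction did not pass without cKO 1, 3 or 4 or without control 1, 4 or 5 (edgeR adjusted p = 0.058 to 0.678), and 54 of 1226 peaks had an unadjusted p under 0.05 for it.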

How the data were processed

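Members and lists were chosen with earlier results of these data known. The authors deposited counts of reads per peak for each of 16 H3K27me3 libraries; 6 IgG libraries were not analysed here. The build was mm10, and the submitters' processing notes list MACS2, SAMtools, DESeq2 1.38.1 and Novoalign 4.02.02 without roles. The libraries behind the peak calls and the way of counting: not given in the sources used here. The authors also deposited a mean signal, a log2 fold change with its error, a test score and p-values. These were not used, since the contrast is not named. The protocol gives controls as Jarid2 fl/fl, and the sample labels, which differ, were used.

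Technical duplicates (chi-square per degree of freedom 0.88 to 0.997) were summed, giving 5 cKO and 5 control animals. Pairs of animals gave 1.05 to 2.53. filterByExpr kept 16307 of 19034 peaks. edgeR 4.0.16 (R 4.3.3) quasi-likelihood tests with TMM scaling and batch as a term were adjusted by Benjamini-Hochberg over all of them, and called at adjusted p under 0.05. The SE was taken as the size of the log2 fold change over the square root of F. CPM are counts scaled to the animal's total in tested peaks times its TMM factor, which ran from 0.935 to 1.07. Per-animal log2 values used a prior count of 2. On simulated data of 16032 peaks for cKO against control, 60% of 1.5-fold and 81% of 2-fold changes were recovered. p-values measure the spread between these animals. Limma 3.58.1, DESeq2 1.42.0, other scalings, filters, terms, batches, duplicates and left-out animals were tried as alternatives. RefSeq gene bodies, promoters and miRNAs came from GRCm38.p6, the assembly of mm10. Peaks named were, per direction, the 10 of smallest adjusted p that went one way in both batches, the 6 with most reads, called small RNAs, retinal miRNAs, up to 4 of each list with the smallest p, and peaks that differed between batches; 1 of them is not reported here. Python 3.11.15 and matplotlib 3.10.9 made the figures.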

Additional observations from a re-analysis of the deposited data

Results flagged for a closer look

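In a group of 5 like animals, chance would put a single one far from the other 4 about 1 time in 20. The groups here mix 2 batches and share animals between peaks, so this rate is only a guide, and no excess was tested. A single animal was far from the other 4 in 9 of 126 groups tested over the 63 named peaks. Control 1, the control with Cre, was the low one at 6 of them: Gm25470 with 191 CPM, against 269 to 287 CPM in the other controls, Gm43426 with 127 CPM, Gm15555 with 62.2 CPM, Gm25942 with 32.4 CPM, Gm23445 with 17.4 CPM and Gm48914 with 3.48 CPM. Of these, Gm48914 was higher in cKO retinas and the other 5 were lower. cKO 1 was high at Mir8110, with 28.8 CPM against 16.0 to 18.9 CPM in the other cKO animals. Control 5 was low at Sfta3-ps with 999 CPM and at Mir137 with 295 CPM, and neither peak was called. The effect of genotype at Gm15556 differed between batches by 1.65 on the log2 scale (edgeR adjusted p = 0.042).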

How the results depend on the processing

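The main counts were 130 lower and 19 higher peaks. Without the batch term they were 36 and 3, and in batch 1 alone 0 and 0, with 151 and 43 at an unadjusted p under 0.05. The higher count was 42 at an adjusted p under 0.1, 38 with total-count scaling, 10 and 7 with the first or second technical duplicate only, and 3 with DESeq2. For animals with the same replicate number, deviations from the group means within batch correlated at -0.444 in batch 1 and 0.0141 to 0.0942 in batch 2. In batch 1, with 2 animals a side, both correlations are equal by construction, so they cannot settle whether animals were paired. With a replicate block 127 were lower and 12 higher. Leaving out each animal gave 92 to 154 lower and 9 to 26 higher peaks, and 0 to 1 peak that differed between batches. The difference in the share of reads, -0.24 percentage points, kept its direction in each of 3 alternatives. Of the results for named peaks that were called, 768 passed and 142 did not pass under an alternative, with 0 reversed. The cause of these changes was not tested.

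Values that changed sign all belonged to peaks that were not called, as log2 fold changes. With total-count scaling they were 0.028 at 2410017I17Rik, 0.042 at Meg3, 0.044 at Mir129-2, 0.0067 at Mir219a-2 and 0.0077 at Mir96. In batch 1 alone they were -0.029 at Gm26644 and -0.040 at Mir203. In batch 2 alone they were 0.054 at Meg3, 0.011 at Mir129-2, -0.023 at Mir9-3 and 0.023 at Mir96. With male animals only, added after seeing the data, they were 0.045 at Meg3 and 0.015 at Mir129-2. The first duplicate gave 0.013 at Mir129-2 and -0.038 at Nkx2-2os, the second 0.030 at Meg3, and limma-voom 0.011 at Meg3. Leaving out each animal in turn gave -0.072 to 0.018 at 2410017I17Rik, -0.030 to 0.051 at Gm26644, -0.066 to 0.033 at Mir129-2, -0.13 to 0.020 at Mir96, -0.034 to 0.079 at Mir203, -0.043 to 0.10 at Mir7b and -0.13 to 0.074 at Meg3. Start sites of coding genes could be read for part of the genes only, so alternatives that need them were not run, and gene bodies were used. At this depth and number of animals, 60% of simulated 1.5-fold changes were found.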
